A study of Mus musculus with 2 samples.

Results

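The cells described here are those cultured mouse germ cells in which Stra8 RNA was found and Kit RNA was not. Members were chosen by these 2 readouts: at least 1 Stra8 UMI and 0 Kit UMIs, a UMI (unique molecular identifier) being 1 captured RNA molecule. They were taken from barcodes with at least 2000 genes, at most 20% mitochondrial UMIs and under 40 UMIs of Vim plus S100a6, a pair of genes that marks the fibroblast feeders. Of 8694 kept cells, 629 were members, 295 of 4157 in the control library and 334 of 4537 in the FGF9-treated library. Since Stra8 and Kit selected the cells, their levels in them are a description. The working name for these cells was retinoic acid responding cells. Retinoic acid target genes were not generally higher in them, as described with those genes, so they are called Stra8-positive cells here, always without Kit unless stated.

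THY-1+ germ cells, which are testis cultures enriched for spermatogonial stem cells (SSC), were held in mouse serum-free medium on feeders of STO, a mouse fibroblast line, and profiled by droplet single-cell RNA sequencing with an antibody tag against the KIT protein. Control cells received 0 ng/ml and treated cells 20 ng/ml FGF9 for 48 h. Between passages 9 and 12 both groups had been grown with GDNF at 20, the GFRA1 protein at 150 and FGF2 at 1 ng/ml, and per the methods of the study they were then moved to medium with FGF9 or with albumin, the controls without growth factors. There was 1 library per treatment, so no difference between treatments could be tested, and every interval here is a 95% interval of counting error alone. The words higher and lower describe these 2 libraries.

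Retinoic acid, made from vitamin A, enters the nucleus and binds receptors of the RAR and RXR families, which sit on paired short DNA sites beside their target genes. In the testis it drives undifferentiated spermatogonia towards differentiation and later into meiosis. Stra8 (stimulated by retinoic acid gene 8) encodes a nuclear protein needed for meiotic entry and is among the first genes induced, and Kit encodes the receptor that marks differentiating spermatogonia. Binding proteins such as CRABP1 hold retinoic acid in the cytoplasm, and the CYP26 enzymes break it down.

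Stra8 (ENSMUSG00000029848) lies on chromosome 6 from 34920163 to 34939344 on the plus strand of GRCm38, and no other annotated gene overlaps it, so its UMIs are not shared with a neighbour. The receptor site letters AGGTCA were searched on both strands, as were GGGTCA and then AGTTCA, in RefSeq promoter windows of GRCm38.p6, from 250 bases before to 50 after each start site. The Stra8 window (chr6:34920698-34920997) held 2 copies of AGGTCA on the strand of the gene. Their first bases lay 194 and 38 bases before the RefSeq start site. This window lies inside the gene span given above, which is from GENCODE and begins further upstream. The stretches around the sites of Stra8, the gene that chose the cells, are shown beside those of Rarb and Cyp26a1, the classical receptor and degrading-enzyme targets of retinoic acid. Capitals mark these sites, and all are read along the strand of the gene, so that an AGTTCA on the other strand appears as its reverse complement.
Stra8 at chr6:34920742-34920771, plus strand: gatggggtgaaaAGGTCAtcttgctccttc
Stra8 at chr6:34920898-34920927, plus strand: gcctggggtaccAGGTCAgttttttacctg
Rarb at chr14:16575542-16575571, minus strand: gtcagactggttGGGTCAtttgaaggttag
Rarb at chr14:16575501-16575530, minus strand: gggttcaccgaaAGTTCActcgcatatatt
Cyp26a1 at chr19:37697769-37697798, plus strand: ttaaagaTGAACTttgggTGAACTaatttg
AGGTCA was present in 16.3% of 32851 windows and 2 or more copies in 1.81%. GGGTCA was present in 13.7% and AGTTCA in 14%, and 37.5% of windows held at least 1 of the 3 strings. AGGTCA was found once in the window of Sohlh1, in 1 of 3 windows of Upp1 and in 1 of 2 windows of Rarg. The windows of Crabp1, Uchl1, Rec8 and Kit held none of the strings. A match is a description of letters and not a binding site.

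There were 71481926 UMIs over 5312 barcodes in control, and 72669787 over 5959 after FGF9. The libraries shared 11 barcodes, of which 10 were kept in both, and 2 control members and 1 FGF9-treated member carried a barcode that was also kept in the other library. No doublet caller was applied, and 12 control and 23 FGF9-treated members were deeper than 2.5 times their library's median. The fewest genes in a member were 2823 in control and 2573 in FGF9-treated cells, and the most Vim plus S100a6 UMIs were 13 and 12, while the lowest feeder cells had 41 and 40. The highest mitochondrial share in a member was 19.2% in control and 16.7% in FGF9-treated cells, against the limit of 20%. On the Stra8 limit, 261 control and 305 FGF9-treated members held exactly 1 Stra8 UMI, and 34 and 29 held 2 or more. On the Kit limit, 52 control and 16 FGF9-treated cells with Stra8 had exactly 1 Kit UMI and were left out, as were 30 and 1 with 2 or more.

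Stra8 was a low and widely spread transcript. Over all kept cells it stood at 6.53 CPM (UMIs per 1e6 UMIs of the same cells; interval 5.94 to 7.17) in control and 5.79 (5.22 to 6.39) in FGF9-treated cells. Members made up 7.10% (6.33 to 7.92, Clopper-Pearson) of kept control cells and 7.36% (6.62 to 8.16) of kept FGF9-treated cells, and the intervals overlapped. When each cell was thinned to 5000 UMIs, leaving out 16 and 22 shallower cells, the shares were 2.73% (2.25 to 3.27) and 2.66% (2.21 to 3.17), so the share depended on depth. Feeder cells, which should lack Stra8, gave 0 of 31 cells in control, which allows a share of up to 9.68%, and 1 of 63 in the FGF9-treated library (1.59%, 0.0402 to 8.53). Their median depth was 20517 and 26481 UMIs against 14824 and 13067 in kept cells. These few feeder cells cannot place the members' share above background. As a level, feeder cells held 0 Stra8 UMIs in 692202, which by the Poisson interval allows up to 5.33 CPM. In the FGF9-treated library they held 0.537 CPM (up to 2.99). Both upper bounds were below the lower bounds in kept cells. Feeder cells are deeper, so a background that enters equally per barcode would give them a lower CPM. The levels therefore cannot place kept cells above such a background either.

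Over all kept cells, with or without Kit, more held 2 or more Stra8 UMIs than a single level at each cell's depth gives. Stra8 chose the members, so this is a description. With 1 Stra8 level for all cells of a library and each cell at its own depth, 25.12 control cells would hold 2 or more Stra8 UMIs, and 52 did. In the FGF9-treated library 18.57 would and 33 did. Of these cells, 34 in control and 29 in the FGF9-treated library were members, and the others carried Kit. Cells with exactly 1 UMI were fewer than that model gives, 325 against 390.5 in control and 318 against 350.1 in FGF9-treated cells. The most Stra8 UMIs in 1 cell were 5 and 4. Most members nevertheless held a single UMI, and many kept cells without one can carry Stra8 RNA that was not captured, so the comparison cells are not free of Stra8.

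**Figure D1:**
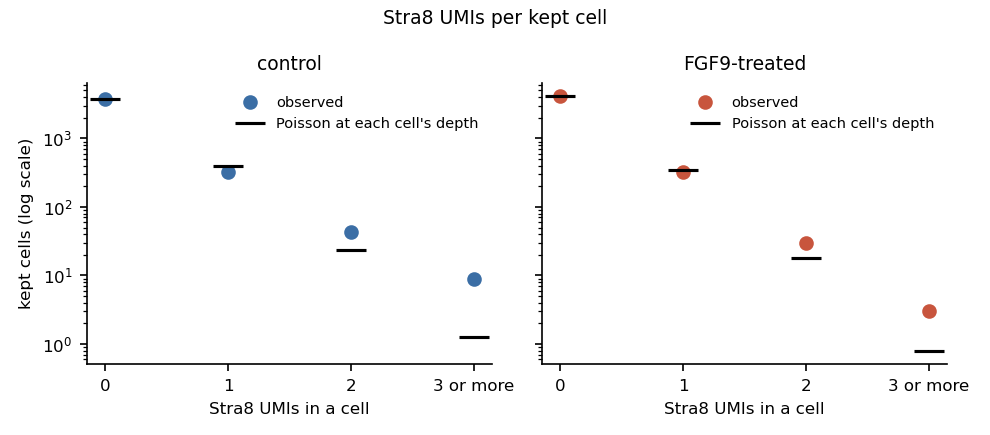
Number of kept cells (log axis) by Stra8 UMIs per cell in the control and FGF9-treated libraries; dots are observed cells and dashes the number given by 1 Stra8 level per library at each cell's own depth. Cells with 2 or more UMIs lie above the dashes in both libraries (52 against 25.12 and 33 against 18.57). Of these, 34 and 29 were members, and the others carried Kit.

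The share of members grew with depth while the Stra8 level grew less. With kept cells in 4 equal classes of depth, from shallowest to deepest, members made up 4.42%, 6.93%, 7.03% and 10.0% in control and 2.91%, 5.64%, 7.94% and 13.0% in FGF9-treated cells. Stra8 itself was at 4.97, 6.98, 6.44 and 6.97 CPM in the control classes. In the FGF9-treated classes it was at 3.64, 5.19, 6.21 and 6.57 CPM. The depth of the cells was therefore matched in every comparison of genes: each member was set against its 3 nearest kept cells in total UMIs with neither Stra8 nor Kit, which gave 885 control and 1002 FGF9-treated matched cells.

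Stra8 was higher in control cells that also carried Kit RNA. In control it stood at 5.98 CPM (5.35 to 6.65) in cells with 0 Kit UMIs, at 7.78 (5.98 to 9.95) with 1 and at 11.9 (8.72 to 15.9) with 2 or more. These classes were not matched on depth, with medians of 14585, 15646 and 18035 UMIs. Both genes are part of the rule, so their relation is a description. Seen from the other side, 82 of 377 control cells with Stra8 had a Kit UMI (21.8%, 17.7 to 26.3), against 16.2% (14.1 to 18.5) of Stra8-negative cells of the same depth, and these intervals overlapped. In the FGF9-treated library Stra8 was at 5.71 CPM with 0 Kit UMIs and at 8.14 (5.16 to 12.2) with 1. It was at 1.93 (0.0487 to 10.7) with 2 or more, from 1 Stra8 UMI in 21 cells. There the Kit shares of Stra8-positive and Stra8-negative cells were 4.84% and 5.13%. Leaving out Kit thus took 82 of the 377 control cells with Stra8 and 17 of the 351 FGF9-treated ones.

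**Figure D2:**
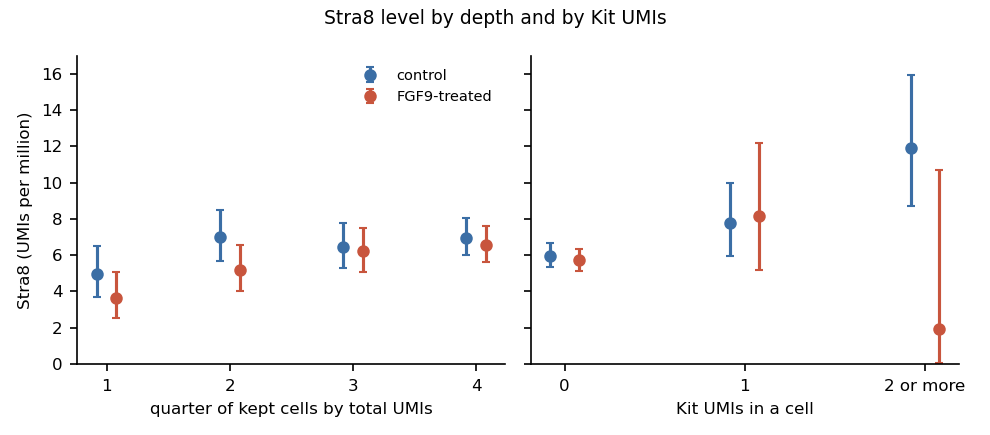
Stra8 in CPM in the control and FGF9-treated libraries, by 4 equal classes of kept cells in total UMIs (left) and by Kit UMIs per cell (right); bars are 95% Poisson intervals of the counts. In control the level is 5.98 without Kit and 11.9 with 2 or more Kit UMIs, with intervals that do not overlap, in classes not matched on depth.

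The KIT antibody tag, a readout that the rule did not use, did not separate the members from their matched cells. The median was 440 tags per member and 439 per matched cell in control, with quartiles of 376 to 579.5 and 371 to 566. In the FGF9-treated library it was 322 and 318 tags. Stra8-positive cells with Kit UMIs had a median of 672.5 tags in control and 356 in the FGF9-treated library. Barcodes outside the filter held 439 and 313 tags, and feeder cells 399 and 333, so the members' tags were at about the level of the background.

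The members were germ cells by their markers, and their median mitochondrial share was near that of the matched cells. All 14 germ cell genes on the list, among them Ddx4, Dazl, Zbtb16 and Sall4, were present, and their summed level was 3446 CPM in control members against 3453 in matched cells and 3243 against 3271 in FGF9-treated cells. The 16 feeder genes summed to 195.0 CPM in control members and 176.0 in matched cells, and to 257.0 and 248.0 CPM in FGF9-treated cells, against 16216 and 20897 in feeder cells. Vim, one of them, was at 5.92 and 3.41 CPM in control members and matched cells, and Sparc, a matrix glycoprotein, at 10.2 and 5.89, and their part in the control ratios was not tested. Cav1 was at 0 in the members of both libraries. Genes of Sertoli, Leydig and other testis somatic cells summed to 19.2 and 22.1 CPM, and immune genes to 0.555 and 2.59 CPM. Median depth, which the matching set, was 16104 UMIs in control members and 16106 in matched cells, and 15799 and 15790 in FGF9-treated cells. Mitochondrial UMIs had medians of 9.32% and 9.31% in control, and of 9.15% and 9.03% in FGF9-treated cells.

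Among genes that make, store or carry retinoic acid, Crabp1 was the one higher in the members of both libraries beyond counting error. Crabp1, the cellular retinoic acid binding protein of differentiating spermatogonia, was at 120.0 CPM in control members and 90.3 in matched cells, a log2 ratio of 0.40 (0.27 to 0.54). In FGF9-treated cells it was at 61.6 and 54.0 CPM, a log2 ratio of 0.19 (0.01 to 0.36). It was found in 70.8% of control members against 64.7% of matched cells, and in 47.9% against 45.9% in the FGF9-treated library. For scale, the counting interval lay above 0 in 6.35% of the 6791 genes with at least 20 CPM in control members or matched cells, and in 4.93% of 6670 genes in the FGF9-treated library. It lay below 0 in 7.19% and 5.02%.

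Crabp1 was also graded by the number of Stra8 UMIs. In control it stood at 90.3 CPM (85.7 to 95) in matched cells, at 113.0 (103.0 to 123.0) in members with 1 Stra8 UMI and at 160.0 (133.0 to 191.0) in members with 2 or more. In FGF9-treated cells the same levels were 54.0 (50.7 to 57.5), 59.1 (52.9 to 65.9) and 83.4 (62.5 to 109.0), and there each interval overlapped the next. The members with 2 or more UMIs had a log2 ratio of 1.02 and 0.74 over their own depth-matched cells, from 34 and 29 cells. Crabp1 was as high or higher in Stra8-positive cells with Kit, at 144.0 CPM (128.0 to 162.0) in control and 110.0 (77.3 to 151.0) in FGF9-treated cells. Kit-positive cells without Stra8 held 107.0 and 71.2 CPM. These splits were chosen after the values were seen.

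The other genes of this list gave smaller or unshared differences. Of 15 genes, 5 reached 10 CPM in control, with a median log2 ratio of 0.37 and 2 intervals above 0, beside 0.00 over all 8772 genes at that limit. In the FGF9-treated library 6 reached it, with a median of 0.08 and 1 interval above 0, beside 0.00 over 8710 genes. Aldh1a2, a dehydrogenase that makes retinoic acid, was at 17.9 and 13.7 CPM in control members and matched cells (0.39, 0.03 to 0.75), and at 10.5 and 11.8 in FGF9-treated cells (log2 -0.17, -0.59 to 0.24). Rdh10, which oxidises retinol, was at 7.03 and 4.41 CPM in control and at 5.01 and 5.72 in FGF9-treated cells. Crabp2, the binding protein that delivers retinoic acid to receptors, did not follow Crabp1: it was at 70.1 and 71.5 CPM in control and at 129.0 and 124.0 in FGF9-treated cells, with log2 ratios of -0.03 and 0.05. Stra6, the retinol transporter, and Lrat, which stores retinol as esters, had at most 2 UMIs in the members of either library.

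The retinoic acid receptors were at the same level in members and matched cells within counting error. Rara was at 24.6 CPM in control members and 27.4 in matched cells (log2 -0.15, -0.44 to 0.13), and at 20.2 and 19.9 in FGF9-treated cells. Rarg, the receptor of differentiation-primed spermatogonia, was at 32.6 and 28.4 CPM in control (0.20, -0.06 to 0.45) and at 17.6 and 17.5 in FGF9-treated cells (0.01, -0.31 to 0.33). Rxrb was at 45.5 and 41.6 CPM, and at 39.3 and 36.1, with log2 ratios of 0.13 and 0.12. None of the 4 receptors at 10 CPM or more had an interval off 0 in either library, and the medians were -0.01 and 0.04.

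Many genes that retinoic acid induces in other cell types were hardly detected in the members. Of 19 such genes in the file, 8 had at most 3 UMIs in all control members and 9 in all FGF9-treated members. Rarb, whose second stretch shown above is its known response element, held 0 UMIs in control members and 2 in FGF9-treated members. Cyp26a1 held 0 UMIs in the members of both libraries, where 3 counts over the group would be 0.555 and 0.485 CPM. All 3 Cyp26 enzymes were at 1 UMI or fewer in each library's members. Rec8, a meiotic cohesin subunit that retinoic acid induces beside Stra8, stood at 11.5 CPM in control members and 7.69 in matched cells (0.58, 0.11 to 1.03), and at 12.8 and 10.7 in FGF9-treated cells (0.26, -0.14 to 0.64). Rec8 was found in 16.9% of control members against 12.4% of matched cells, and in 21.3% against 16.4% in the FGF9-treated library. Meiosin, the partner of STRA8 and listed as Gm4969, was at 2.04 and 2.92 CPM in control and at 2.26 and 1.69 in FGF9-treated cells. Sall4, a germ cell factor, was at 62.7 and 64.0 CPM, and at 63.4 and 61.9. Over the targets with 10 CPM or more, the median log2 ratio was -0.03 in control (3 genes) and 0.07 in FGF9-treated cells (4 genes). The members were thus chosen by Stra8 without being generally higher for this list.

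**Figure D3:**
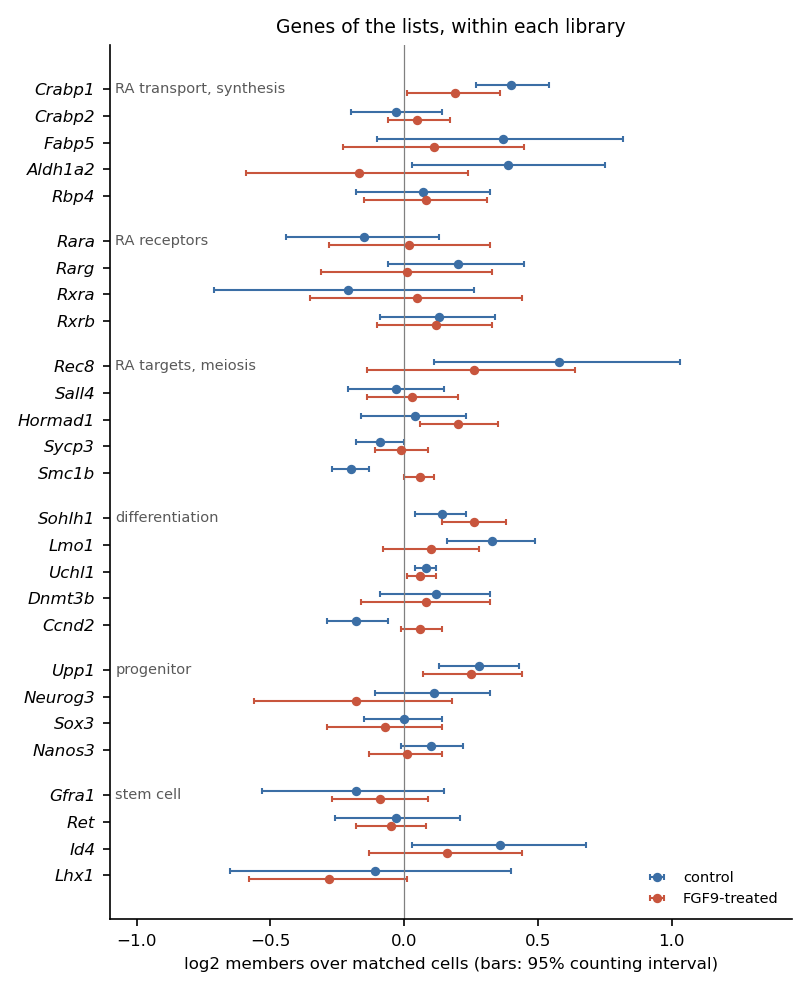
Log2 ratio of members over depth-matched cells for genes of the lists in the control and FGF9-treated libraries; dots are ratios of summed CPM and bars 95% counting intervals. Crabp1 (0.40 and 0.19), Sohlh1 (0.14 and 0.26), Uchl1 (0.08 and 0.06) and Upp1 (0.28 and 0.25) lie above 0 in both, and the receptors' bars cover 0.

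Most measured genes of the differentiating list were slightly higher in the members of both libraries. Of 11 measured genes, 8 were above 0 in control and 10 in FGF9-treated cells, with medians of 0.08 and 0.09, and 4 intervals lay above 0 in each library, beside 529 of all 8772 control genes and 401 of 8710 genes after FGF9. In control these were the intervals of Sohlh1, Crabp1, Lmo1 and Uchl1. Lmo1 and Nanos3 are on the progenitor list too. With 2 or more Stra8 UMIs the control median was -0.03. Sohlh1, a transcription factor of early differentiation, was at 229.0 CPM in control members and 208.0 in matched cells (0.14, 0.04 to 0.23), and at 122.0 and 102.0 in FGF9-treated cells (0.26, 0.14 to 0.38). Lmo1, a LIM-only cofactor, was at 77.7 and 61.9 CPM in control (0.33, 0.16 to 0.49) and at 55.6 and 51.9 in FGF9-treated cells (0.10, -0.08 to 0.28). Uchl1, a ubiquitin hydrolase found in spermatogonia, was at 1410 and 1334 CPM in control (0.08, 0.04 to 0.12) and at 695.0 and 664.0 in FGF9-treated cells (0.06, 0.01 to 0.12). With 2 or more Stra8 UMIs, Sohlh1 stood at -0.03 in control and Uchl1 at -0.11 in FGF9-treated cells. Together with Kit, which the rule sets to 0 here, Sohlh1, Crabp1 and Lmo1 are the genes that the study took as its differentiation set on these same samples, so their shared direction is not independent evidence. Ccnd2, a cyclin of differentiating spermatogonia, went the other way in control at 152.0 and 171.0 CPM (log2 -0.18, -0.29 to -0.06), and was at 306.0 and 293.0 in FGF9-treated cells. The DNA methyltransferase genes Dnmt3a and Dnmt3b had intervals that covered 0 in both libraries. Ratios of this size were not confined to this list. On the germ cell list, Pou5f1 was at 66.0 and 52.7 CPM in control members and matched cells (0.32, 0.14 to 0.50). Zbtb16 was at 177.0 and 161.0 CPM there (0.14, 0.03 to 0.24). Their FGF9-treated ratios were 0.04 and 0.03. Of 12 measured germ cell genes 6 were above 0 and 6 below in control, with a median of 0.00.

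Progenitor genes were split. Upp1, a uridine phosphorylase that the study lists with progenitors, was at 99.7 CPM in control members and 82.0 in matched cells (0.28, 0.13 to 0.43), and at 53.7 and 45.0 in FGF9-treated cells (0.25, 0.07 to 0.44). It was found in 72.2% of members against 63.3% of matched cells in control, and in 53.9% against 45.6% in the FGF9-treated library. With 2 or more Stra8 UMIs its control ratio was -0.08, from 56 UMIs in 34 cells. In FGF9-treated members it was at 53.7 CPM (47.8 to 60.2) with 1 Stra8 UMI and at 53.5 (37.1 to 74.8) with 2 or more. Thus it did not rise from 1 to 2 or more Stra8 UMIs in either library, though it stayed above the matched cells after FGF9. Neurog3, a transcription factor of progenitors, was at 46.1 and 42.7 CPM in control and at 12.9 and 14.7 in FGF9-treated cells. Sox3, another, was at 99 and 99.3 CPM and at 38.8 and 40.8. The list medians were 0.10 and 0.01 over 9 genes, with 2 and 1 intervals above 0 and 0 below. In control those above 0 were Upp1 and Lmo1, and Lmo1 is also counted on the differentiating list. Over all genes, 529 of 8772 control intervals lay above 0 and 401 of 8710 after FGF9.

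The members were not depleted of stem cell genes beyond counting error. Gfra1, the GDNF coreceptor, was at 17.2 CPM in control members and 19.5 in matched cells (log2 -0.18, -0.53 to 0.15), and at 56.1 and 59.7 in FGF9-treated cells (log2 -0.09, -0.27 to 0.09). Ret, the signalling receptor with which it pairs, was at 36.6 and 37.3 CPM and at 98.9 and 102.0. Id4, an inhibitor of DNA binding enriched in stem cells, was higher in control members at 21.6 and 16.9 CPM (0.36, 0.03 to 0.68) and stood at 22.5 and 20.1 in FGF9-treated cells (0.16, -0.13 to 0.44). The median over the SSC list was -0.07 for 5 genes in control and 0.03 for 7 genes in FGF9-treated cells, and 0 intervals lay below 0. Over all genes, 550 of 8772 control intervals and 392 of 8710 FGF9-treated ones lay below 0.

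Genes of meiotic entry and prophase were present in the cultures and were not generally higher in the members, and in control several were slightly lower. Of 21 measured genes, 7 were above 0 in control and 12 in FGF9-treated cells, with medians of -0.06 and 0.04. In control 7 intervals lay below 0 and 1, that of Rec8, above, beside 550 below and 529 above of all 8772 genes. In FGF9-treated cells 1 lay below and 2 above, beside 392 and 401 of all 8710 genes. Smc1b, a meiotic cohesin, was at 397.0 and 455.0 CPM in control members and matched cells (log2 -0.20, -0.27 to -0.13), and at 579.0 and 556.0 in FGF9-treated cells (0.06, 0.00 to 0.11). Sycp3, of the synaptonemal complex, was at 264.0 and 281.0 CPM in control and at 170.0 and 171.0 in FGF9-treated cells. Hormad1, a chromosome axis protein, was at 55.1 and 53.7 CPM in control and at 89.4 and 77.6 in FGF9-treated cells (0.20, 0.06 to 0.35). Spo11, which makes the meiotic breaks, had 4 UMIs in control members and 2 in FGF9-treated members.

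Over all genes the members differed little from matched cells. A log2 ratio of 0.5 or more was reached by 11 of 6791 genes in control (0.162%) and by 4 of 6670 in FGF9-treated cells (0.06%). A ratio of -0.5 or less was reached by 6 genes (0.0884%) and 4 genes (0.06%). The genes from the 1st to the 99th percentile lay between -0.34 and 0.34 in control and between -0.29 and 0.29 in FGF9-treated cells. The sign of the ratio was the same in both libraries for 3563 of 6398 genes measured in both (55.7%), and across these genes, which are not independent replicates, the ratios of the libraries had a Pearson r of 0.13 and a Spearman rho of 0.14. Of the 11 genes past the limit in control, 7 had the same sign in the FGF9-treated library and 1, the homeobox gene Lhx8, had a ratio past the limit there as well (0.50 in control and 0.57 in FGF9-treated cells). With 26 UMIs in FGF9-treated members, Lhx8 was below 20 CPM there and is not among the 4 genes counted.

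Genes that stood highest in both libraries, ranked by the interval bound nearest 0, were Map1b, Aldoa, Nefm, Upp1, Ddx19b, Mvd, Fth1, Sohlh1, Hspa8, Slc43a3, Hint1 and Naxe. Map1b, a microtubule-associated protein best known in neurons, was at 34.0 and 26.5 CPM in control (0.36, 0.10 to 0.61) and at 28.1 and 20.5 in FGF9-treated cells (0.46, 0.19 to 0.72). Aldoa, a glycolytic aldolase, was at 193.0 and 157.0 CPM in control (0.30, 0.19 to 0.40) and at 392.0 and 354.0 in FGF9-treated cells (0.14, 0.08 to 0.21). Both stayed above 0 in 10 of 10 alternative settings in each library. Mvd, of the cholesterol pathway, was at 40.5 and 32.3 CPM and at 26.4 and 21.1, with log2 ratios of 0.33 and 0.32. Nefm, a neurofilament gene, was at 32.0 and 23.1 CPM in control, where 35.3% of the members' UMIs came from 5 cells, and at 246.0 and 221.0 in FGF9-treated cells. Against 1 matched cell per member in place of 3, its control ratio was -0.11, and with 2 or more Stra8 UMIs its FGF9-treated ratio was -0.09.

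The lowest genes in both libraries were Cep350, Malat1, Eif4g3, Nrk, Fzd2, Tgif1, Lsm14b, Kmt2a, Gtf3c1, Mtmr3, Pet2 and Jund. Cep350, a centrosomal protein, was at 70.7 and 88.5 CPM in control (log2 -0.33, -0.49 to -0.16) and at 63.9 and 78.9 in FGF9-treated cells (log2 -0.31, -0.47 to -0.14). Malat1, a nuclear non-coding RNA, was at 2324 and 2756 CPM in control (log2 -0.25) and at 2887 and 3186 in FGF9-treated cells (log2 -0.14). Tgif1, a homeobox repressor that acts on TGF-beta and retinoid signalling, was at 15.2 and 20.5 CPM and at 16.7 and 22.4, with log2 ratios of -0.44 and -0.43. Fzd2, a WNT receptor, had log2 ratios of -0.35 and -0.39. All 24 of these genes were ranked by the ratios given, so their values are a description.

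**Figure D4:**
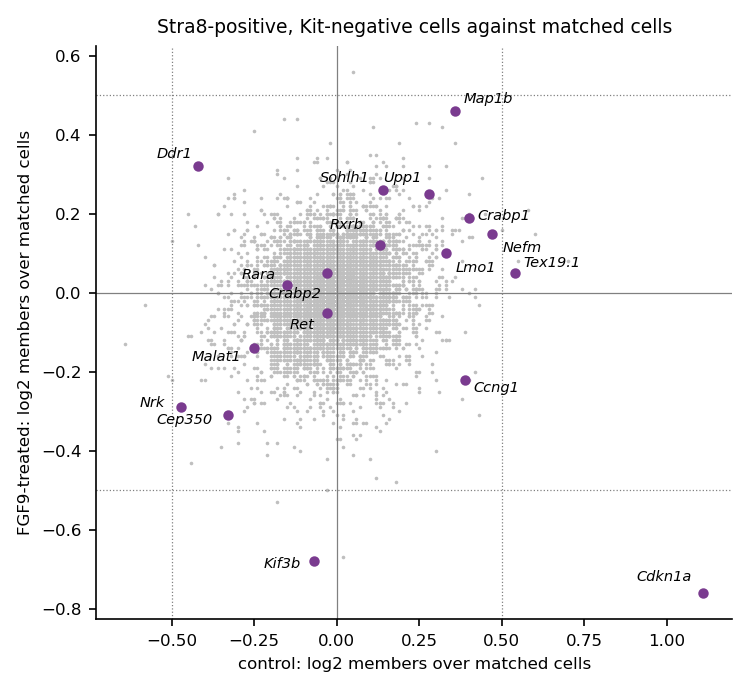
Log2 ratio of members over depth-matched cells in the control library (horizontal) and the FGF9-treated library (vertical) for genes with at least 20 CPM in both libraries; each dot is 1 gene, and dotted lines mark 0.5 and -0.5. Crabp1, Upp1, Sohlh1 and Map1b lie right of and above 0, and Cdkn1a lies far right and low (1.11 and -0.76).

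Ranked within control, other genes stood higher in members, and whether their ratios differed between the libraries was not tested. Tex19.1, a germ cell gene that silences transposons, was at 127.0 CPM in control members and 87.1 in matched cells (0.54, 0.41 to 0.68), found in 74.9% against 59.0% of cells, and at 103.0 and 99.9 CPM in FGF9-treated cells (0.05, -0.08 to 0.18). Fkbp11, a prolyl isomerase of the secretory pathway, was at 58.6 and 38.8 CPM in control (0.60) and at 85.0 and 76.6 in FGF9-treated cells (0.15, 0.00 to 0.30). Cyba, a subunit of NADPH oxidase, was at 70.7 and 48.4 CPM (0.55) and at 43.5 and 41.1 (0.08). Id1, a target of BMP signalling, was at 17.8 and 11.4 CPM in control members and matched cells (0.64, 0.27 to 1.00), and at 36.5 and 32.4 in FGF9-treated cells (0.17, -0.06 to 0.39). The other 2 measured genes of the BMP list were below 0 in control, where the list median was -0.19.

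Ratios of genes that p53 induces were unlike in the libraries, a difference that was not tested. Of 10 measured genes, 9 were above 0 in control members, with a median of 0.11. Of their intervals 4 lay above 0, beside 529 of all 8772 control genes. In FGF9-treated cells 4 of 9 were above 0, with a median of -0.07. There 2 intervals lay below 0, beside 392 of all 8710 genes. Cdkn1a, the p21 inhibitor of cyclin-dependent kinases, was at 29.4 CPM in control members and 13.7 in matched cells (1.11, 0.80 to 1.41), and at 17.9 and 30.5 in FGF9-treated cells (log2 -0.76, -1.07 to -0.47). These UMIs came from few cells: 45 of 295 control members held any, and 5 of them held 47.8% of the 159 UMIs. In FGF9-treated members 50 of 334 cells held 111 UMIs, with 37.8% in 5 cells. Counting intervals do not cover such uneven spread between cells. Another annotated transcript overlaps Cdkn1a, as Uchl1os does Uchl1, and reads of the pairs cannot be told apart where the counting took no strand. Ccng1, cyclin G1, was at 58.6 and 44.7 CPM in control (0.39, 0.20 to 0.59) and at 53.2 and 62.1 in FGF9-treated cells (log2 -0.22, -0.40 to -0.05). With 2 or more Stra8 UMIs, the FGF9-treated ratio of Ccng1 was 0.71.

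Cell cycle genes differed little in sum between members and matched cells. UMIs of the S phase list made up 0.130% of all UMIs in control members and 0.131% in matched cells, and 0.214% and 0.202% in FGF9-treated cells. Those of the G2/M list made up 0.226% and 0.229%, and 0.347% and 0.359%. The medians over the measured S phase genes were 0.02 in control and 0.06 in FGF9-treated cells, where 8 of 18 intervals lay above 0 and 0 below, beside 401 above 0 of all 8710 genes. In control 0 of 16 lay off 0. For G2/M the medians were -0.03 and -0.04, with 3 of 18 intervals above 0 and 4 below in control, and 1 above and 5 below in FGF9-treated cells. Over all genes, 550 of 8772 control intervals lay below 0 and 392 of 8710 after FGF9.

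Between the libraries, members of the FGF9-treated library were higher than control members for FGF target genes, as the matched cells were. Of 6943 genes with at least 20 CPM in the members of either library, 107 had a log2 ratio of 1 or more (1.54%) and 59 one of -1 or less (0.85%). The libraries also differ in capture, handling and depth in ways that cannot be told apart from FGF9. Etv5, a transcription factor of SSC self-renewal, had 7 UMIs in control members and 190 in FGF9-treated members, 1.30 and 30.7 CPM, a log2 ratio of 4.57 (3.5 to 5.90), beside 3.91 (3.38 to 4.48) in matched cells. Etv4, of the same family, was at 0.925 and 31.0 CPM, with 5 UMIs in control. Dusp6, a phosphatase that feeds back on ERK, was at 4.63 and 55.3 CPM (3.58, 2.99 to 4.23), beside 2.95 in matched cells. All 13 measured genes of the FGF and MAPK list were higher in FGF9-treated members, 11 of them past the limit, and the median was 1.73, beside 1.71 in matched cells. A gene was measured if it reached 10 CPM in either library. Within control 7 of the 19 list genes reached it, and within the FGF9-treated library 13. Genes such as Etv5, Etv4 and Dusp6 entered only through the FGF9-treated side, so the shared direction and the median are partly set by this limit.

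Most stem cell genes were higher and most progenitor and differentiation genes lower in FGF9-treated members. For scale, the ratio in members over 6943 genes at 20 CPM or more had a median of -0.02. Its 5th and 95th percentiles were -0.56 and 0.56. How many of all genes had an interval off 0 was not counted between the libraries, so such counts here lack a background. In members, Gfra1 was at 17.2 CPM in control and 56.1 in the FGF9-treated library (1.71, 1.37 to 2.05), and Ret at 36.6 and 98.9 (1.43, 1.20 to 1.67). The SSC list had a median of 1.43, with 6 of 7 genes above 0 and 5 past the limit, beside 1.46 in matched cells. Within control 5 genes of this list reached 10 CPM, so here too some entered only through the FGF9-treated side. Neurog3 was at 46.1 and 12.9 CPM (log2 -1.83, -2.21 to -1.46), and Sox3 at 99 and 38.8 (log2 -1.35, -1.58 to -1.13). All 9 progenitor genes were below 0, 6 of them with the interval below 0, and the median was -0.58, beside -0.49 in matched cells. Galnt12 at -0.01 (-0.27 to 0.24), Sox4 at -0.02 (-0.10 to 0.06) and Ddit4 at -0.16 (-0.33 to 0.01) had intervals that covered 0. Lhx1, which the study lists with progenitors and which is on the SSC list here, was at 1.38 (0.86 to 1.93). Crabp1 was at 120.0 and 61.6 CPM (log2 -0.96, -1.14 to -0.77), beside -0.74 in matched cells. Sohlh1 had a log2 ratio of -0.91 in members and -1.03 in matched cells, and Uchl1 -1.02 and -1.01. Of 11 measured differentiating genes, 8 were below 0 and 3 above, each with its interval off 0, and the median was -0.48, beside -0.38 in matched cells. The 3 above were Ccnd2 at 1.01 (0.90 to 1.13), Dmrtb1 at 0.70 (0.22 to 1.19) and Sohlh2 at 0.29 (0.07 to 0.52). Stra8 per member was at 61.6 and 58.8 CPM, which the choice of members fixes near 1 UMI per cell. Crabp2 was at 70.1 and 129.0 CPM (0.87, 0.70 to 1.05), beside 0.79 in matched cells, opposite in sign to Crabp1. All 18 S phase genes and all 18 G2/M genes were above 0, with medians of 0.72 and 0.65, beside 0.60 and 0.75 in matched cells.

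**Figure D5:**
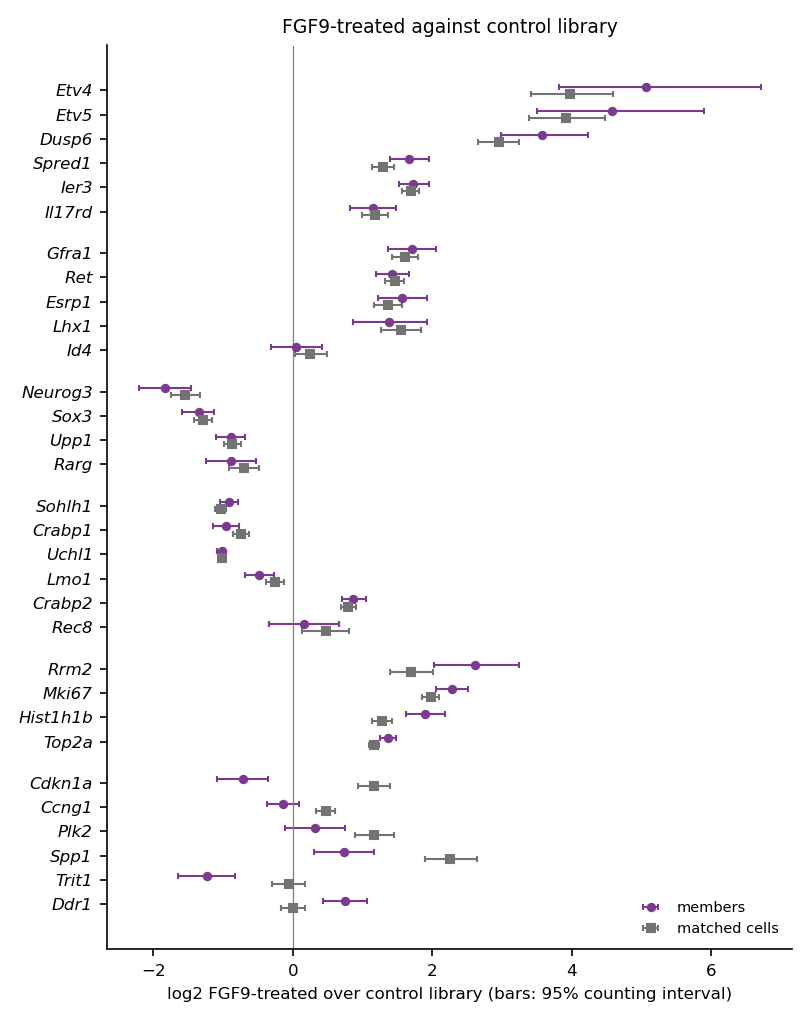
Log2 ratio of the FGF9-treated over the control library in members (circles) and in depth-matched cells (squares), with 95% counting intervals. Most genes lie at like ratios in both, as Etv5 (4.57 and 3.91), Ret (1.43 and 1.46) and Uchl1 (-1.02 and -1.01), whereas Cdkn1a (-0.71 and 1.16), Spp1 (0.73 and 2.26) and Trit1 (-1.23 and -0.06) lie apart.

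Few genes had an FGF9 to control ratio in members unlike that in matched cells. The difference between the log2 ratios lay between -0.44 and 0.42 from the 1st to the 99th percentile of 6941 genes. First among the lower was Cdkn1a, at -1.87 (-2.29 to -1.46), followed by Spp1, Trit1, Ccng1, Zcchc2, Plk2, Bbx and Cmtm7. Spp1, which encodes osteopontin, was at 13.0 CPM in control members and 4.47 in matched cells, with 35.7% of the members' UMIs in 5 cells, and at 21.5 and 21.3 in FGF9-treated cells, a difference of -1.52 (-2.08 to -0.97). Trit1, a transfer RNA modifying enzyme, was at 29.6 and 19.0 CPM in control and at 12.6 and 18.2 in FGF9-treated cells, a difference of -1.17 (-1.62 to -0.72), and was found in 42.4% and 28.7% of control cells and in 19.5% and 27.0% of FGF9-treated cells. Among the higher were Ddr1, Hist1h1b, Lyrm4, Tfe3, Uxs1, Rrm2, Ggh and Grin2a. Ddr1, a collagen receptor kinase, was at 24.2 and 32.5 CPM in control members and matched cells and at 40.7 and 32.7 in FGF9-treated cells, a difference of 0.74 (0.39 to 1.09). Rrm2, a ribonucleotide reductase subunit used in S phase, was at 5.0 and 7.14 CPM and at 30.4 and 23.2, a difference of 0.91 (0.25 to 1.56). With 2 or more Stra8 UMIs, its ratios of members over matched cells turned from -0.51 to 0.49 in control and from 0.39 to -0.47 in FGF9-treated cells. These genes were ranked by the interval bound of the difference nearest 0, so their values are a description.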

How the data were processed

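Cultured mouse germ cells were captured with the 10x Chromium 3' chemistry with feature barcoding, in 1 library per treatment, each from cells of 3 mice pooled. The deposited matrices hold raw UMI counts for 32285 genes and the KIT tag, which the authors made with Cell Ranger (3.1.0 in the matrix header) against mm10 before their own cell filter. The submitters' processing notes also name Seurat 3.1.

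Barcodes were kept, members chosen and matched cells drawn (the 3 nearest in UMIs other than Stra8, without reuse) as the report states. UMIs were summed over cells per library. Ratios are log2 ratios of CPM with exact conditional binomial intervals, shares have Clopper-Pearson intervals and levels Poisson intervals, at the 95% level. All cover counting error only, and cells of 1 library are not replicates, so no p-value was computed. For thinning, each cell was reduced to 5000 or 8000 UMIs. Genes needed 10 CPM in members or matched cells for list medians and 20 CPM for ranks. Ratios within a library were counted from 0.5 and between libraries from 1.0 on the log2 scale. No doublet caller was run; 1 alternative leaves out barcodes deeper than 2.5 times the median.

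Named genes were Stra8, Kit, the genes the study names, retinoic acid list genes at 10 CPM or more, up to 4 genes per list by size of ratio, and genes ranked by the interval bound nearest 0: 12 in each direction in both libraries, 6 in each library alone and 8 by difference of FGF9 ratios. Other list genes are given for their role, and some list genes are not reported here. Members and lists were chosen with earlier results of these data known. The splits by Stra8 UMIs, depth and Kit UMIs were chosen after values were seen.

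Gene positions are from GENCODE vM21, in which 32158 of the 32285 identifiers were found, and promoter sequences from RefSeq on GRCm38.p6. The ratio and interval code was tested on simulated data. Python 3.11.15, numpy 2.4.6, scipy 1.17.1, pandas 2.3.3 and matplotlib 3.10.9 were used.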

Additional observations from a re-analysis of the deposited data

Results flagged for a closer look

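Cdkn1a and Trit1 had ratios of opposite sign in the control and FGF9-treated libraries, each with a counting interval off 0, and the difference between treatments was not tested, with 1 library each. Cdkn1a in members over matched cells was at 1.11 in control and -0.76 in FGF9-treated cells on the log2 scale. Its 159 UMIs in control members lay in 45 cells and its 220 in matched cells in 88, and in the FGF9-treated library 111 lay in 50 members and 560 in 187 matched cells. Trit1 was at 0.64 in control and -0.53 in FGF9-treated cells. Its UMIs were spread more evenly, with 9.38% of those in control members and 15.4% of those in FGF9-treated members in 5 cells.

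Barcodes outside the filter, which no comparison used, held 4 Stra8 UMIs in control (1.29 CPM, 0.352 to 3.30) and 11 in the FGF9-treated library (2.94 CPM, 1.47 to 5.27). Both levels were below those of kept cells, and the 11 UMIs were above the 3 counts that a count of 0 allows.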

How the results depend on the processing

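Of 2347 values of single genes under alternatives, 2154 lay inside the counting interval of the reported value, 190 lay outside it, and 3 that were past the fold limit changed sign. Smaller ratios that changed sign are not counted among these 3. Of those 190, 135 came with members of 2 or more Stra8 UMIs, which leaves 34 control and 29 FGF9-treated members. Those 3 came with it too: Etv4 (1.17) and Rrm2 (0.49) in control and Bbc3 (0.58) in FGF9-treated cells. Of 130 list medians, 118 stayed within that limit.

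The number of genes past the fold limit within a library was 17 in control and 8 in FGF9-treated cells. It was 57 and 26 with 1 matched cell per member, 964 and 993 with 2 or more Stra8 UMIs, 27 and 14 as a mean of cells' own CPM, and 59 and 28 with at most 10% mitochondrial UMIs. It was 7444 and 7298 with no limit on CPM, 3 and 0 with at least 50 CPM, and 1 and 0 at a log2 ratio of 1. In FGF9-treated cells it was 5 when matched on cell cycle share too and 15 without the deepest barcodes. Between libraries 166 members' genes were past the limit, and 486 with 2 or more Stra8 UMIs. Fewer cells or lower counts enter most of the larger numbers, and the cause was not tested for the rest.

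With 2 or more Stra8 UMIs, the control medians were 0.87 for retinoic acid synthesis, 0.36 for receptors, -0.10 for progenitors and -0.03 for differentiating genes. The FGF9-treated medians were 0.36, -0.24 and 0.15 for the first 3 of these lists, and -0.18 for SSC genes. In control, the synthesis median was 0.16 when matched on genes detected and 0.19 at 50 CPM, the progenitor median 0.03 without the deepest barcodes, and the SSC median -0.23 with at most 10% mitochondrial UMIs.

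Members made up 2.73% and 2.66% of control and FGF9-treated cells thinned to 5000 UMIs, 4.5% and 4.19% at 8000, and 0.818% and 0.639% when 2 or more Stra8 UMIs were asked for. With any number of Kit UMIs the control share was 9.07%. No paired analysis was possible because each treatment has 1 library. Depth limits the members themselves, since most carry 1 Stra8 UMI.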
